A study of Mus musculus with 12 samples.

Results

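The keratins described here are Krt7, Krt8, Krt14, Krt16, Krt17, Krt18, Krt19, Krt20 and Krt80, 9 of the 18193 genes that could be read from the arrays and 9 of the 48 keratin genes among them. Each gene was read through the probe set that names it alone and has the highest mean over the 12 arrays. These means therefore served to choose the probe sets and are given only as a description. MC38 is an established mouse colon carcinoma line. The cells were grown as monolayers and given GDC-0623, an inhibitor of the kinase MEK, at 100 nM, or the solvent DMSO, and their RNA was collected 24 h or 72 h later. The 4 groups were named by time and agent: 24h GDC-0623 and 72h GDC-0623, with the controls 24h DMSO and 72h DMSO. Each group held 3 replicates, with 1 array per replicate. Both DMSO groups are solvent controls of their own time point, all groups are the same line, and there was no untreated group and no second dose. Because only 1 line was measured, the values describe MC38 cells in culture and no other tumor.

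Keratins are the intermediate filament proteins of epithelial cells. An acidic (type I) keratin pairs with a basic (type II) keratin, and the filaments of such pairs are tied to desmosomes and hemidesmosomes. Krt8 with Krt18 is the founding pair of simple, single-layered epithelium such as the gut lining, Krt7 and Krt19 join it in ducts, and Krt20 is characteristic of the intestine. Krt14 pairs with Krt5 in the basal cells of stratified epithelium. Krt16 and Krt17 are held low in resting skin and are known for being switched on by wounding and other stress, with Krt6a and Krt6b as partners of Krt16. Krt80 is a type II keratin of many epithelia that is found near desmosomes.

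MEK inhibition was accompanied by a rise of the basal keratin Krt14 and the stress keratin Krt16, while most simple epithelial keratins lay in the background range throughout. Krt16 was 9.85-fold higher with GDC-0623 than with DMSO at 24 h and 7.03-fold higher at 72 h, and Krt14 was 5.99-fold and 5.59-fold higher. Krt80 was higher by a factor of 1.89 at 24 h and 2.01 at 72 h. Krt7 rose at 72 h and was not called at 24 h, and Krt8 was the single member that fell, at 72 h. Krt17, Krt18, Krt19 and Krt20 were not called in any comparison.

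The values are log2 expression values from robust multichip averaging (RMA), in which 1 unit is a doubling. They carry no detection call, so a group mean below 5 was marked as background range. As a guide to that range, the probe sets of 39 olfactory receptor genes, which tumor cells hardly express, had a median of 3.48 and a 95th percentile of 4.48, and 38 of the 39 were below 5 in all groups. A fold change that starts from the background range can be too small. Array medians lay between 4.63 and 4.70, and replicate arrays correlated with r between 0.9954 and 0.998. On the first principal component, which held 58.6% of the variance, 72h GDC-0623 replicate 1 lay at 77.4 and the other arrays of its group at 44.8 and 49.8, so the called keratin changes at 72 h are also given without it. All adjusted p-values are from limma, adjusted by the Benjamini-Hochberg method over all 45037 probe sets tested, and a change was called at an adjusted p under 0.05. Errors of changes are standard errors of that fit and errors of levels are SDs, with n = 3 per group.

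The label of these genes as expressed keratins held for few of them. In each DMSO group, 8 of the 9 had a mean in the background range and Krt8 alone was above it. Of the 9 genes, 5 (Krt7, Krt17, Krt18, Krt19 and Krt20) stayed below 5 in all 4 groups, beside 39.1% of all genes. A group mean of 6 or more was reached by 2 of them, Krt14 and Krt16, and only with GDC-0623. Without the drug, then, these arrays gave little signal for these 9 keratins. Of the 9 genes, 4 had a value of 5 or more on at least 3 of the 12 arrays.

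**Figure D1:**
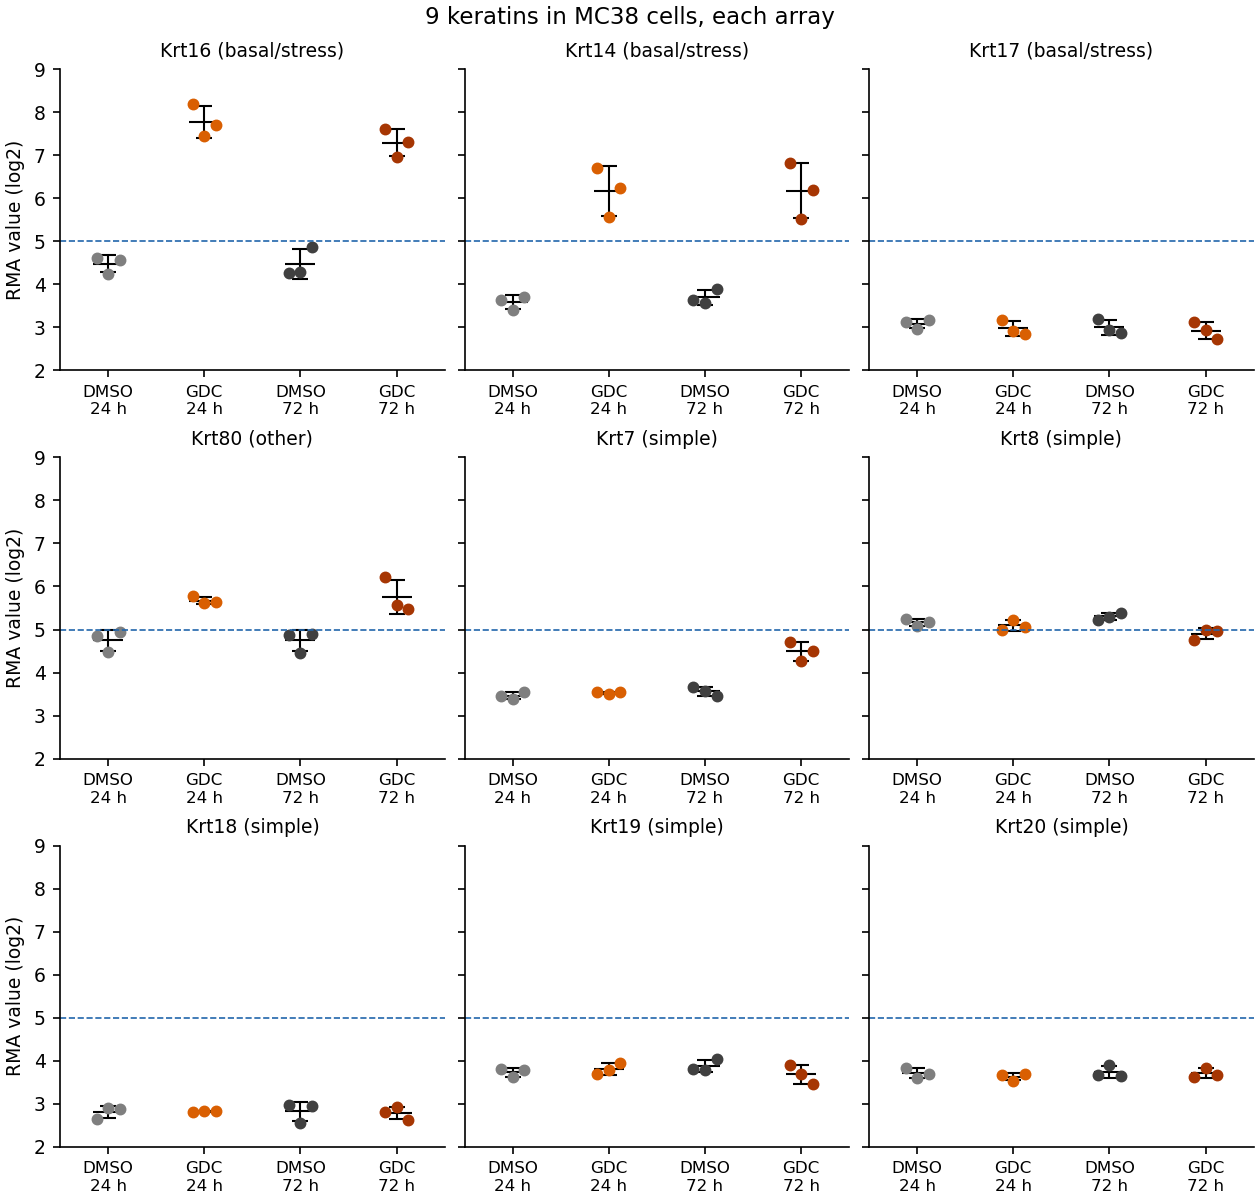
RMA values (log2, vertical axis) of the 9 keratins on each of the 12 arrays, by group; points are arrays, bars the mean and SD of 3 arrays, and the dashed line marks 5, below which a mean counted as background range. Krt16 and Krt14 lie above 5 on all 6 GDC-0623 arrays and below it on all 6 DMSO arrays, and Krt17, Krt18, Krt19 and Krt20 lie below it throughout.

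Krt16 changed the most of the 9. In 24h DMSO its 3 arrays read 4.62, 4.25 and 4.57, and in 72h DMSO they read 4.27, 4.29 and 4.88. With GDC-0623 the values were 8.19, 7.45 and 7.70 at 24 h and 7.60, 6.96 and 7.32 at 72 h. The 6 drug-treated arrays were all far above the 6 DMSO arrays, which lay in the background range. The change was 3.30 ± 0.17 at 24 h (95% confidence interval 2.91 to 3.69, adjusted p = 7.77e-06, limma) and 2.81 ± 0.19 at 72 h (adjusted p = 3.31e-05). Without 72h GDC-0623 replicate 1 the change at 72 h was 2.66. The level under the drug was lower at 72 h than at 24 h by 0.49 ± 0.20, which was not called (adjusted p = 0.179). It was lower for each replicate number, and with replicate number fitted as a block the drop was called. That drop was called when the arrays were scaled by their hybridization controls (−0.59, adjusted p = 0.0351), a scaling that also moved the median of all genes in this comparison to −0.14.

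Krt14 also rose at both times, from the background range. Its chosen probe set, 1423935_x_at, read 3.64, 3.41 and 3.71 in 24h DMSO and 3.63, 3.56 and 3.90 in 72h DMSO. With GDC-0623 it read 6.71, 5.57 and 6.23 at 24 h and 6.81, 5.53 and 6.20 at 72 h. The drug-treated arrays did not overlap with the DMSO arrays at either time, and replicate 2 was the lowest of its group at both. The change was 2.58 ± 0.23 at 24 h (adjusted p = 1.12e-04, limma) and 2.48 ± 0.26 at 72 h (adjusted p = 3.10e-04), and 2.17 at 72 h without 72h GDC-0623 replicate 1.

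The other probe sets of Krt14 did not all move. The ending x in the name of the chosen probe set means that some of its probes also match other transcripts, so closely related type I keratins could add to it. A second probe set, 1460347_at, designed for Krt14 alone, rose from 3.76 ± 0.16 to 5.71 ± 0.47 at 24 h, a change of 1.95 (adjusted p = 2.02e-04, limma), and from 3.83 ± 0.09 to 5.65 ± 0.70 at 72 h, a change of 1.82 (adjusted p = 0.00207). The third, 1455573_at, kept group means between 3.43 and 3.60 and was called in no comparison. A probe set annotated to both Krt17 and Krt14, 1427841_at, had means between 4.19 and 4.55 and was not called for the drug at either time. It was lower at 72 h than at 24 h under GDC-0623 (−0.30, adjusted p = 0.0495). The mean that chose 1423935_x_at included the drug-treated arrays. In DMSO, 1460347_at was the brighter of the pair, with 3.76 and 3.83 against 3.59 and 3.70 at 24 h and 72 h. So 2 of the 3 probe sets of Krt14 showed the rise, and the cause of the difference was not tested.

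Krt17, the stress keratin whose gene lies next to that of Krt16, did not move with it. The chosen probe set ranged from 2.72 to 3.20 over the 12 arrays, and the groups overlapped. Its change was −0.11 at 24 h (95% confidence interval −0.34 to 0.12) and −0.08 at 72 h (−0.36 to 0.20). The second probe set, 1423227_at, lay between 2.58 and 2.98, with changes of 0.21 (adjusted p = 0.135) and 0.15 (adjusted p = 0.294). Between 0 and 8 of the 39 olfactory receptor genes were dimmer than Krt17 in any group, counting both probe sets. At such signal a low level of Krt17 transcript could not have been told from none.

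**Figure D2:**
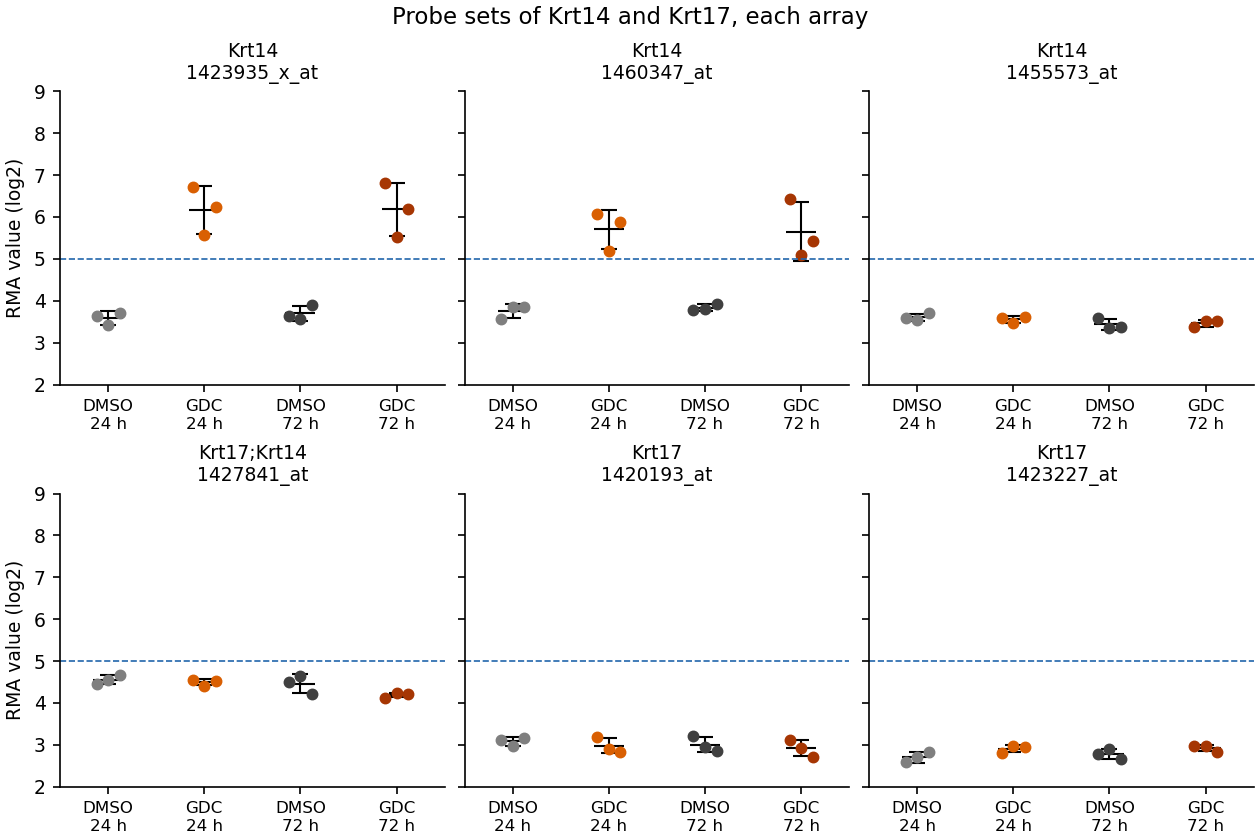
RMA values (log2, vertical axis) on each array for the 3 probe sets of Krt14, the probe set shared by Krt17 and Krt14 and the 2 probe sets of Krt17; points are arrays, bars the mean and SD of 3 arrays, the dashed line marks 5. The first 2 Krt14 probe sets rise above 5 with GDC-0623 and the other 4 probe sets stay below 5 on every array.

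Krt80 crossed the edge of the background range. It read 4.84, 4.48 and 4.94 in 24h DMSO and 4.88, 4.46 and 4.90 in 72h DMSO, against 5.77, 5.62 and 5.63 in 24h GDC-0623 and 6.22, 5.57 and 5.48 in 72h GDC-0623. Every drug-treated array was above 5 and every DMSO array below it. The change was 0.92 ± 0.12 at 24 h (adjusted p = 6.92e-04, limma) and 1.01 ± 0.19 at 72 h (adjusted p = 0.00614). Without 72h GDC-0623 replicate 1, the highest of its group, the change at 72 h was 0.78 (adjusted p = 0.00872).

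Among the simple epithelial keratins, the promoter windows of the 3 that share a region of chromosome 15 are shown, since Krt7 rose, Krt8 fell and Krt18, the partner of Krt8, was not called. They come from RefSeq (GRCm38.p6) and run 5′ to 3′ along the gene's own strand, from 250 bases before the annotated start to 50 after it. The windows are chr15:101412153-101412452 on the plus strand for Krt7, chr15:102004293-102004592 on the minus strand for Krt8 and chr15:102027966-102028265 on the plus strand for Krt18. Capitals mark matches to the motifs searched.
Krt7: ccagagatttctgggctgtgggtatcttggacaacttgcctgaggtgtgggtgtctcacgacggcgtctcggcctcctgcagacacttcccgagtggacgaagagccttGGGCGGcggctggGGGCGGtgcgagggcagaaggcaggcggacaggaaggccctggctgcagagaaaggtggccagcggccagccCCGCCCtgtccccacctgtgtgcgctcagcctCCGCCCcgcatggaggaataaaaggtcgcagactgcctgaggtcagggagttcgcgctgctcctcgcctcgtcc
Krt8: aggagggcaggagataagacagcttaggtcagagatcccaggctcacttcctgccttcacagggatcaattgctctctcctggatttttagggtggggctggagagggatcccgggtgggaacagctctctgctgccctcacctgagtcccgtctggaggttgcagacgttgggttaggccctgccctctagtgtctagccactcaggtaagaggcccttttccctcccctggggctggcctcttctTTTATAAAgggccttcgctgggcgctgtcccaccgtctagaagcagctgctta
Krt18: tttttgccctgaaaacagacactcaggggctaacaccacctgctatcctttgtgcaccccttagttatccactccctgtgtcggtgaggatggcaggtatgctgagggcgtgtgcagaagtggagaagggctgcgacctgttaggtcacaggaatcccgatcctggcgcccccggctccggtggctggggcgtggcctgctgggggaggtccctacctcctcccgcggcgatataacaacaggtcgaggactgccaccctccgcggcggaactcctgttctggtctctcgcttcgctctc

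The motifs searched, on both strands, were AP-1 (TGANTCA), STAT (TTCNNNGAA), ETS (CGGAAGT), Sp1 (GGGCGG) and the TATA box (TATAAA). Krt7 held 4 Sp1 matches, which began 141, 128, 56 and 24 bases before the start, the first pair on the strand shown and the others on the opposite one. In Krt8 the TATA letters were matched on both strands by a pair of overlapping matches at the annotated start itself, and the Krt18 window held no match. Of all 32851 windows of this length, 35.7% held the Sp1 letters, 13.6% the TATA box, 7.81% AP-1, 8.30% STAT and 6.42% ETS. Windows were present for 5 of the 9 genes; that of Krt20 held a TATA box and that of Krt14, which lies 1480 bases inside the annotated gene, held none of these letters.

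Krt7 was the one keratin of the 9 whose drug effect differed between the times. Its values were 3.45, 3.38 and 3.54 in 24h DMSO and 3.54, 3.50 and 3.55 in 24h GDC-0623. At 72 h they were 3.67, 3.57 and 3.45 with DMSO and 4.71, 4.26 and 4.50 with GDC-0623. The 3 arrays of 72h GDC-0623 were above all 9 others, yet their mean of 4.49 ± 0.23 was still in the background range, with 37 of the 39 olfactory receptor genes below it. The drug effect was 0.07 ± 0.07 at 24 h (adjusted p = 0.544, limma) and 0.93 ± 0.12 at 72 h (adjusted p = 8.18e-04). Without 72h GDC-0623 replicate 1 the latter was 0.82 (adjusted p = 0.00198).

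Krt8 was the only one of the 9 whose means in DMSO lay above the background range. In DMSO its chosen probe set, 1420647_a_at, read 5.24, 5.09 and 5.17 at 24 h and 5.23, 5.29 and 5.39 at 72 h. With GDC-0623 it read 4.99, 5.23 and 5.07 at 24 h, which overlapped with DMSO, and 4.75, 4.99 and 4.96 at 72 h, all below the DMSO arrays of that time. The change was −0.07 ± 0.08 at 24 h (adjusted p = 0.633, limma) and −0.40 ± 0.09 at 72 h, a 1.32-fold drop (adjusted p = 0.0133). It was no longer called without 72h DMSO replicate 3 (−0.36, adjusted p = 0.0559) and was called without 72h GDC-0623 replicate 1 (−0.33, adjusted p = 0.0317).

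The other probe sets of Krt8 had all group means below 5 and, by their names, share probes with other transcripts. One, 1435989_x_at, fell by 0.38 at 72 h (adjusted p = 0.0338, limma), from 4.95 ± 0.17 to 4.57 ± 0.13. The other, 1423691_x_at, changed by −0.19 (adjusted p = 0.342) and had opposite, uncalled signs at the different times, with 0.20 at 24 h. The fall of Krt8 was thus seen in 2 of its 3 probe sets and was small in both.

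Krt18, Krt19 and Krt20 gave no called change and no value of 5 or more. Krt18 ranged from 2.56 to 2.96 over the 12 arrays, with drug effects of 0.01 (95% confidence interval −0.18 to 0.19) at 24 h and −0.04 (−0.32 to 0.24) at 72 h. Krt19 ranged from 3.45 to 4.03, with effects of 0.07 (−0.13 to 0.27) and −0.19 (−0.47 to 0.08). Krt20 ranged from 3.54 to 3.91, with effects of −0.08 (−0.27 to 0.11) and −0.03 (−0.26 to 0.20). Every group overlapped with the others for these 3 genes. The intervals hold changes of background-range signal, so they do not bound a change of a transcript that the probe sets did not detect.

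By class, 2 of the 3 basal and stress keratins rose at each time, with a median change of 2.58 at 24 h and 2.48 at 72 h. Of the 5 simple epithelial keratins, 0 were called at 24 h by limma, also 0 at an unadjusted p under 0.05, and the median change was 0.01. At 72 h 1 rose and 1 fell, with a median of −0.04. Over all genes the median change was −0.03 at both times. The shares of all genes called were 13.3% higher and 8.23% lower at 24 h, and 13.8% and 12.4% at 72 h. Of the 5 simple epithelial keratins, 4 were in the background range throughout. The difference between the classes was not tested, since the genes were grouped with earlier results of these data known.

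Over the 9 keratins, 3 rose and 0 fell with GDC-0623 at 24 h, where 13.3% of all genes were called higher and 8.23% lower. At 72 h 4 rose and 1 fell, with 13.8% of all genes called higher and 12.4% lower. With members picked by hand and many of them in the background range, such counts describe these genes and are no evidence about keratins at large. The drug effects at the different times differed for 1 of the 9, Krt7, by 0.85 ± 0.14 (adjusted p = 0.00588, limma), in a test that called 3.08% of all genes in either direction. For Krt16 this difference was −0.49 ± 0.29 (adjusted p = 0.497), and for Krt8 it was −0.33 ± 0.12 (adjusted p = 0.220).

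**Figure D3:**
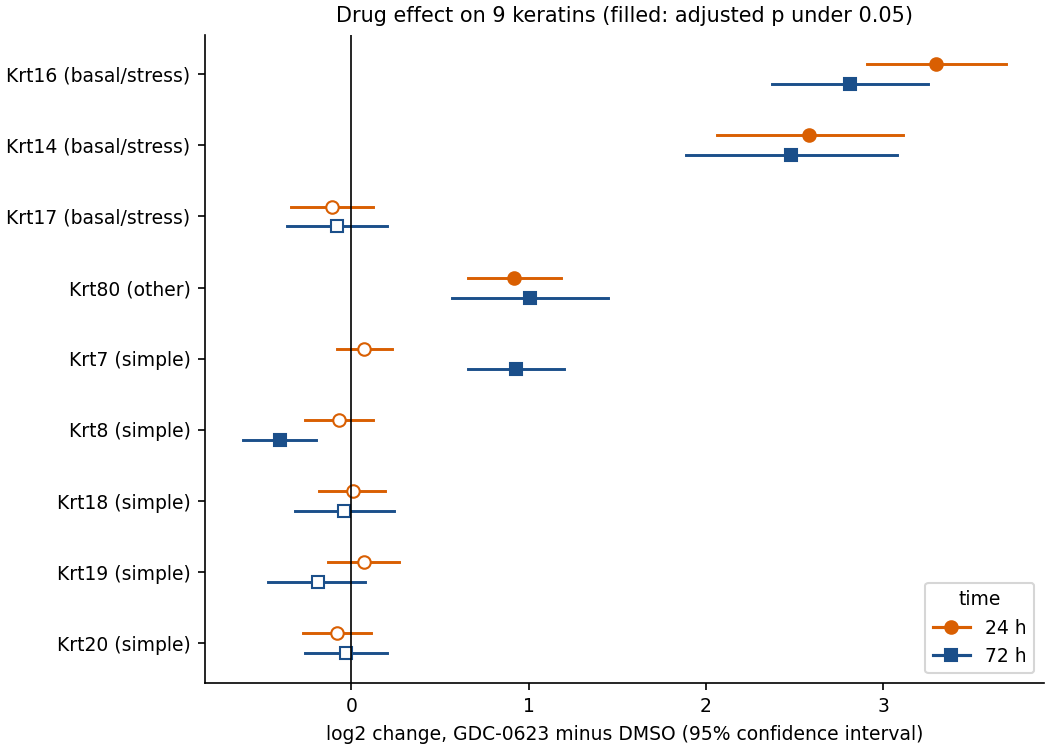
Log2 change with GDC-0623 against DMSO (horizontal axis) for each of the 9 keratins at 24 h (circles) and 72 h (squares); lines are 95% confidence intervals of the limma fit and filled symbols have an adjusted p under 0.05. Krt16, Krt14 and Krt80 lie to the right of 0 at both times, Krt7 at 72 h, and Krt8 lies to the left of 0 at 72 h.

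No change of the 9 keratins with culture time alone passed the test. From 24 h to 72 h in DMSO, 0 of the 9 were called by limma and 0 had an unadjusted p under 0.05, while 13.5% of all genes were called in either direction. The changes of the chosen probe sets ran from −0.09 for Krt17 to 0.14. The other Krt8 probe sets were higher at 72 h by 0.33 (1423691_x_at, adjusted p = 0.102, unadjusted p = 0.0172, limma) and 0.24 (1435989_x_at, adjusted p = 0.146, unadjusted p = 0.0305), with no overlap between the times, and the mean of the Krt8 probe sets was called (0.24, adjusted p = 0.0408). Under GDC-0623, 1 of the 9 was called between the times, with 8.90% of all genes called in either direction. That gene was Krt7, which rose by 0.96 ± 0.11, a factor of 1.95 (adjusted p = 0.00120), and by 0.85 without 72h GDC-0623 replicate 1.

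The known partner keratins gave no called drug effect. Krt5, the basal partner of Krt14, had means of 4.35 and 4.28 in DMSO at 24 h and 72 h and of 4.28 and 4.25 with GDC-0623. Its drug effect was −0.07 at 24 h (adjusted p = 0.656) and −0.03 at 72 h (adjusted p = 0.857). Krt6a, a partner of Krt16, was read by 3 probe sets, of which 1422783_a_at had means between 6.13 and 6.26 and the others means below 4, with no drug effect called in any. Krt6b had means between 3.46 and 3.57. Krt5 and Krt6b thus lay in the background range in all groups, so these values do not bound a change of an undetected transcript.

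Of the 39 other keratins, 29 were below 5 in all groups and 5 reached 6 in some group. Krt10, a keratin of differentiating epidermal layers, rose from 7.54 to 7.77 at 24 h (0.23 ± 0.07, adjusted p = 0.0486, limma) and was 0.32 ± 0.11 higher at 72 h, which was not called (adjusted p = 0.0732). Krt24 fell by 0.36 at 24 h within the background range (adjusted p = 0.00948). At 72 h, 0 of the 39 were called. The shares over all genes were 39.1% below 5 in all groups, 13.3% called higher and 8.23% lower at 24 h, and 13.8% and 12.4% at 72 h.

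**Figure D4:**
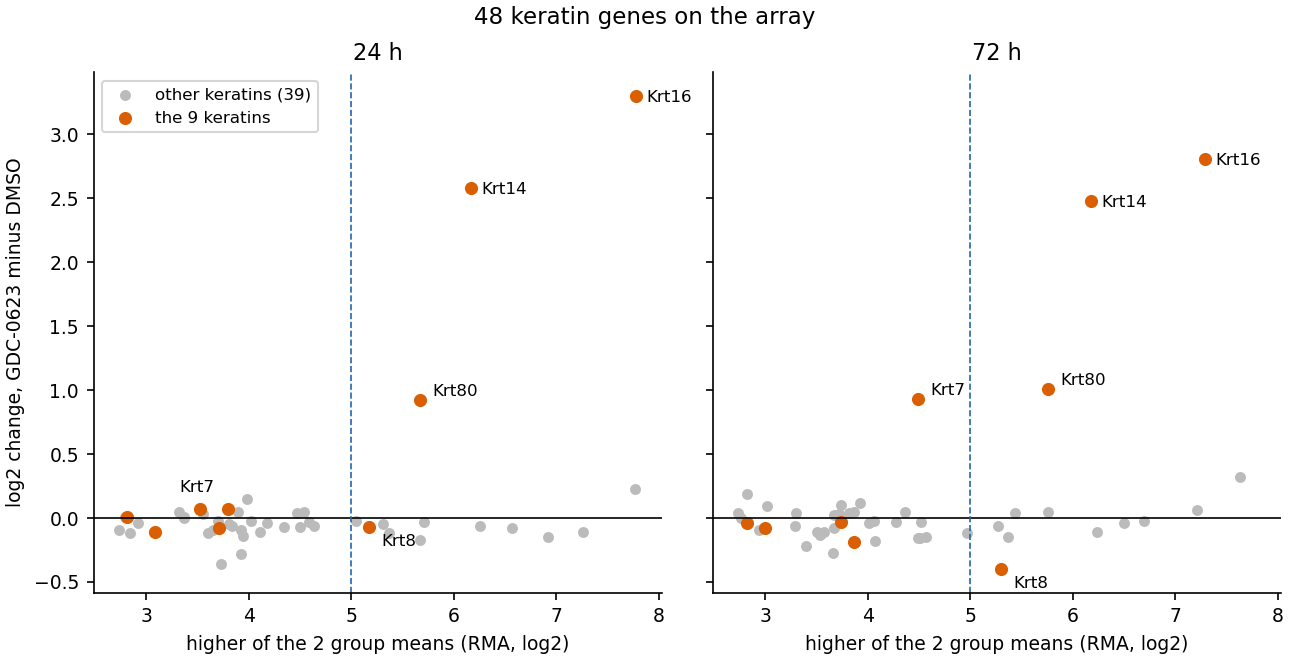
Log2 change with GDC-0623 against DMSO (vertical axis) for the 48 keratin genes at 24 h and 72 h, against the higher of both group means (RMA, log2, horizontal axis), which shows on which side of 5 (dashed line) a gene lay and does not compare amounts between genes. Orange points are the 9 keratins, gray points the 39 others; Krt16, Krt14 and Krt80 stand above the rest at both times, joined by Krt7 at 72 h.

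In the reference gene order (GRCm38.p6), the type I keratins Krt14, Krt16 and Krt17 lie together on chromosome 11, with 2 annotated genes between Krt14 and Krt16 and 0 between Krt16 and Krt17. Krt19 lies 2 genes from Krt14, and Krt20 is 55 genes further away. On chromosome 15, 3 genes lie between Krt80 and Krt7, 31 between Krt7 and Krt8, and 2 between Krt8 and Krt18. On chromosome 11 the called Krt14 and Krt16 lay between the uncalled Krt19 and Krt17, and on chromosome 15 Krt80 and Krt7 rose while Krt8 fell.

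The genes whose pattern over the 12 arrays was most like that of Krt14, by Pearson correlation among 9484 genes reaching a mean of 6, were Trnp1, Anapc2 and Chfr, each with r = 0.99 and with Spearman rho of 0.97, 0.92 and 0.97. For Krt16 they were Serpinb1a, Rtn3 and Gnb2, each with r = 0.99 and with rho of 0.92, 0.96 and 0.95. Serpinb1a, an inhibitor of serine proteases, rose from the background range, with group means of 3.74 and 4.05 in DMSO and 8.83 and 8.76 with GDC-0623 at 24 h and 72 h. The points share the same 4 groups, so any gene with a steady drug effect gives a high r.

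Listed genes of desmosomes, hemidesmosomes and filament linkers gave few calls, in both directions. Of 19 measured desmosome, hemidesmosome and linker genes, 12 were in the background range throughout (39.1% of all genes were), among them desmoplakin (Dsp), whose means lay between 2.85 and 3.06. At 24 h 1 of the 19 rose and 1 fell, where 13.3% of all genes were called higher and 8.23% lower. The desmosome-associated gene Perp rose from 5.69 to 6.74, a change of 1.05 ± 0.11 (adjusted p = 2.51e-04, limma). At 72 h its change was 0.32 ± 0.20, which was not called (adjusted p = 0.321). Itga6, an integrin chain found in hemidesmosomes, fell by 0.40 (adjusted p = 0.00556) and at 72 h by 1.16 (adjusted p = 1.08e-04). The hemidesmosome genes Itgb4 and Col17a1 were in the background range, with means between 3.97 and 4.21 and between 2.72 and 2.93. At 72 h 1 rose and 3 fell, beside 13.8% and 12.4% of all genes. The riser was Plec, encoding the linker plectin, by 0.45 (adjusted p = 0.00313), and the plakophilin gene Pkp4 fell by 0.47 (adjusted p = 0.00444). The medians over the list were −0.06 at 24 h and −0.04 at 72 h.

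Other intermediate filament genes gave no call. Of 14 measured, 0 were called by limma at either time, where 13.3% and 13.8% of all genes were called higher and 8.23% and 12.4% lower. Vim, encoding the filament protein of mesenchymal cells, was bright in every group, with means of 13.61 in 24h DMSO, 13.57 in 24h GDC-0623, 13.64 in 72h DMSO and 13.77 in 72h GDC-0623.

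The label of the line as a colon carcinoma was set against markers of epithelium, many of which were in the background range. Of 20 measured genes of epithelial identity, 11 were in the background range in all groups, as were 39.1% of all genes. In some group, 4 reached 6, among them Cldn1 only in 72h GDC-0623. Tjp1, encoding a tight junction scaffold protein, had means between 9.09 and 9.39, and Spint2, a serine protease inhibitor gene, between 6.21 and 6.30. Cdh1, encoding E-cadherin, had means between 2.61 and 2.72, and Epcam means between 5.34 and 5.62. The epithelial markers Cldn7 and Esrp1 were in the background range, with means between 3.73 and 3.80 and between 3.33 and 3.58. Grhl2 had means between 5.12 and 5.40. In this list 1 gene rose and 1 fell at 24 h (13.3% and 8.23% of all genes did), and 1 rose at 72 h (13.8%). The tight junction gene Cldn1 rose at both times, from 3.53 to 5.42 at 24 h (1.89 ± 0.15, adjusted p = 4.96e-05, limma) and from 3.78 to 7.76 at 72 h (3.97 ± 0.10, adjusted p = 3.26e-07), and its effects differed between the times by 2.08 (adjusted p = 1.00e-04). Of 11 intestinal genes 9 were in the background range throughout and 0 were called for the drug. The intestinal regulator Cdx2 had means between 4.80 and 5.08 and the brush border gene Vil1 between 3.12 and 3.39.

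Genes of keratinocyte differentiation, the program of the outer epidermis, gave 1 call over both times. Of 21 cornified envelope and keratinocyte genes, 15 were in the background range in all groups, 0 were called by limma at 24 h and 1 rose at 72 h. Over all genes 39.1% were in the background range throughout, 13.3% rose and 8.23% fell at 24 h, and 13.8% rose at 72 h. The called gene, Sfn, encoding the epithelial protein stratifin, went from 4.58 to 5.11 (adjusted p = 0.0179, and 0.0478 without 72h GDC-0623 replicate 1).

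Regulators known from work on basal and stress keratin genes moved in both directions. Of 16 measured, 6 rose and 1 fell at 24 h, and 6 rose and 2 fell at 72 h. Of all genes 13.3% rose and 8.23% fell at 24 h, and 13.8% rose and 12.4% fell at 72 h, and the list was chosen with earlier results known. Klf4, a transcription factor of differentiating epithelium, rose by 1.54 (adjusted p = 9.54e-06, limma) at 24 h and 0.88 (adjusted p = 0.00242) at 72 h. Jund and Fosl2, subunits of AP-1, rose by 1.50 and 1.04 at 24 h and by 0.79 and 0.98 at 72 h. Fosl1, another AP-1 subunit, fell by 1.31 (adjusted p = 1.50e-04) and 1.42 (adjusted p = 2.79e-04). Stat3 rose by 0.97 at 24 h and 1.49 at 72 h. Trp63, also a marker of basal epithelium, had means between 4.03 and 4.13, in the background range, and was called at neither time. The median of the list was 0.15 at 24 h and 0.26 at 72 h, beside −0.03 over all genes.

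Genes used as markers of other cells were also read in these cultures of 1 cell line. Of 5 fibroblast markers, 2 rose at 24 h and 3 at 72 h, beside 13.3% and 13.8% of all genes. Dcn went from 7.61 to 8.17 at 24 h and from 8.76 to 11.25 at 72 h, and Col3a1 from 11.19 to 12.19 and from 12.38 to 13.42. Col1a1 had means between 4.18 and 4.21, except for 5.09 in 72h GDC-0623. Pdgfra, with means between 8.75 and 9.48, was not called for the drug, and Thy1 stayed in the background range. The summed linear signal of the 5 markers ranged from 2652 to 3766 in 24h DMSO, 4993 to 6594 in 24h GDC-0623, 6175 to 6626 in 72h DMSO and 12757 to 16665 in 72h GDC-0623. Col3a1 was the brightest of the 5 in every group and carries most of this sum. The part of these genes in the keratin values was not tested.

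Of 5 leukocyte markers, 1 fell at each time, beside 8.23% of all genes at 24 h and 12.4% at 72 h. It was Cd14, by 0.35 and 0.57, and the pan-leukocyte gene Ptprc had means between 2.75 and 2.91. The leukocyte sum lay between 190 and 239 at 24 h and between 210 and 297 at 72 h. All 4 endothelial markers were in the background range in every group, 0 were called, and their sum ran from 59.9 to 70.3. Of all genes, 39.1% were in that range throughout. The shares called higher were 13.3% at 24 h and 13.8% at 72 h, and those called lower were 8.23% and 12.4%. In bulk samples such as these, more cells of a type and more RNA per cell cannot be told apart, which holds for the keratin values as well. Without 72h GDC-0623 replicate 1, 17 of the 18 listed genes called at 72 h outside the 9 keratins were still called, with Itga6 at −1.06, Cldn1 at 3.93, Stat3 at 1.27 and Dcn at 2.23; the exception was the regulator Nfe2l2 (0.27 with the array and 0.21, adjusted p = 0.0905, without it).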

How the data were processed

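RNA of MC38 cultures was labeled from its 3′ end and hybridized to Affymetrix mouse GeneChip arrays. The deposited values are log2 values that the authors made by RMA, a method also named in the submitters' processing notes, rounded to 2 decimals; its version is not given in the sources used here. RMA equalizes the distributions of the arrays, so a shift common to nearly all genes is lost; the number of arrays limits the precision. Of 45101 probe sets, 64 controls were left out and 45037 were tested. The array annotation gave 34945 of them 1 symbol, 932 several and 9160 none, and identifiers of 34741 were matched to RefSeq.

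Groups came from the sample titles. limma 3.58.1 (R 4.3.3; lmFit, eBayes, two-sided) compared the 6 arrays of each pair of groups. The difference between the drug effects used all 12. Named were the 9 keratins and the 3 genes most like each keratin reaching 6 (Pearson correlation). Up to 4 called genes per list reaching 6, by size of change, and cell type markers were also named. Sfn, Nfe2l2, Tjp1, Spint2, Krt24, Krt5, Krt6a, Krt6b, Krt15, Dsp, Itgb4, Col17a1 and Vim were added after their values were seen. The keratins, gene lists and tests were chosen with earlier results of these data known. Alternatives were leaving out each array, a replicate block, 1 fit over all arrays, a filter on dim probe sets (5 or more on 3 arrays), renewed quantile normalization, scaling by 18 hybridization control probe sets, a trended robust prior, array weights and the mean of a gene's probe sets. The fit was tested on simulated data.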

Additional observations from a re-analysis of the deposited data

Results flagged for a closer look

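Krt7 drew attention because its drug effect differed between the times: the effect at 72 h exceeded that at 24 h by 0.85 ± 0.14 on the log2 scale (adjusted p = 0.00588, limma, all 12 arrays). It was higher in 3 of 3 arrays of 72h GDC-0623 than in every other array. With 1 array left out at a time the difference ran from 0.74 to 0.97. All group means of Krt7 lay below 5, in the background range.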

How the results depend on the processing

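Of 646 keratin changes recomputed under the alternatives, 642 kept their direction and side of the threshold or were uncalled in both, 3 became called and 1 lost its call; 52 uncalled values changed sign and 0 called ones did. Of the 10 called changes, 9 were called under every alternative that could test them, and the exception was Krt8 at 72 h without 72h DMSO replicate 3. The filter on dim probe sets is no support here, since Krt14, Krt16 and Krt80 passed it through their GDC-0623 arrays alone. Leaving out 1 array at a time gave 3 called keratins at 24 h, 4 to 5 at 72 h, 1 for the difference of effects, 0 for time in DMSO and 1 for time under GDC-0623. The filter on dim probe sets left 4 or fewer keratins and removed Krt7, so the difference of effects and the time under GDC-0623 then gave 0 calls each. With the mean of a gene's probe sets, time in DMSO gave 1 call, Krt8 (0.24, adjusted p = 0.0408), the cause of which was not tested.

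The sample titles do not say whether replicate numbers pair the samples, and the main fit took them as unpaired. Deviations of same-numbered arrays correlated weakly, with r between 0.01 and 0.29, all positive. No compared pair of groups had every r over 0.1, so a pairing was not settled. With the replicate block, time under GDC-0623 gave 2 calls, Krt7 and Krt16 (−0.49, adjusted p = 0.0128), and the block changed no other call. Scaling by hybridization controls also gave 2 calls there, with Krt16 at −0.59. That scaling moved the median change of all genes to 0.12 at 24 h and −0.02 at 72 h, and to −0.15 for the difference of effects. Of all called genes, the share that was higher went from 61.8% to 89.1% at 24 h, from 52.7% to 56.8% at 72 h, from 62.1% to 80.6% for time in DMSO, from 65.1% to 33.3% for time under GDC-0623 and from 52.6% to 35.4% for the difference of effects; the cause was not tested. A different pseudocount was not run, since the values are logarithms already. Signal near the background limits what can be said of Krt7, Krt17, Krt18, Krt19 and Krt20.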
